A study of Gallus gallus with 3 samples.

Results

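The transcriptome of clone 41, a transfected clone of chicken DT40-ASF cells with an SRSF1-3 knock-in, was compared with that of the untransfected control culture of the same line. All genes with at least 10 counts in one of the 2 libraries were described, which were 10019 of the 11877 genes in the table of read counts. RNA of clone 41 carried the genotype label SRSF1-3 knock in, and RNA of the untransfected cells carried the genotype label control. Both were described as reconstituted cells of the B cell line DT40 and were grown in the same medium with bovine and chicken serum. From general knowledge of DT40-ASF cells, their own SRSF1 locus was disrupted and the human protein (ASF) is expressed in its place, a background that both sides share. Clone 41 is 1 clone and each side is 1 library. Transfection, the history of the clone and the state of the control culture move with the knock-in and cannot be told apart from it. No replicate spread exists, so sizes and directions are given and no test was made.

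SR proteins bind RNA through recognition motifs and recruit the splicing machinery through domains rich in arginine and serine. SRSF1, the founding member, takes part in splice site choice, in nonsense-mediated decay and in translation, and SRSF1-3 is one of its splice isoforms. DT40 cells come from a bursal lymphoma, proliferate rapidly and diversify their immunoglobulin genes in culture, which made the line a standard for gene targeting.

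The total count was 42439517 in clone 41 and 44868987 in the control. Counts were scaled to CPM (counts relative to library size) with edgeR's TMM factors, and a log2 ratio is that of clone 41 over control after a prior count of 2 was added. Intervals in parentheses are exact conditional binomial 95% intervals of the ratio of 2 counts. Only counting error enters these intervals, and reads copied by PCR are not separate molecules. A count of 0 allowed up to 0.0725 CPM in clone 41 and 0.0651 CPM in the control, taken as 3 counts. All 13 fixed B cell markers were measured, with a summed level of 1343 CPM in clone 41 and 1396 CPM in the control. The 9 fixed T and NK cell markers summed to 20.3 CPM in clone 41 and 39.6 CPM in the control, and 6 of them had at least 10 counts in one library. Among them CD8A had 359 counts in clone 41 and 1011 in the control, and CD3D had 296 counts in clone 41 and 268 in the control, while CD4 and ZAP70 had a count of 0 in clone 41 and of 1 in the control. The 7 myeloid markers summed to 159.1 CPM in clone 41 and 131.6 CPM in the control. SPI1, CEBPB and CTSS made up nearly all of that sum, and CSF3R and MARCO were at 0 in both libraries. Fibroblast and epithelial markers summed to 29.1 CPM in clone 41 and 20.1 CPM in the control, mostly from COL1A2, and the only erythroid and thrombocyte marker in the table, GP9, had a count of 0 in clone 41 and of 1 in the control. In bulk RNA, fewer cells of a type and less RNA per cell cannot be told apart.

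SRSF1 was more abundant in clone 41. It had 1991 counts (48.1 CPM) in clone 41 and 1402 counts (30.4 CPM) in the control, a ratio of 1.58 (1.48 to 1.69). The deposited FPKM (fragments per length of transcript and size of library) gave a smaller difference, 57.7 in clone 41 and 43.6 in the control. Counts per gene do not show which isoform, or which of the chicken and human copies, these reads came from. Of the 12 SR protein genes measured, 7 lay above 0 on the log2 ratio scale and 5 below, with a median of 0.01 (-0.06 with scaling to total counts) and a range of -0.62 to 0.66. SRSF1 was the highest of them. SRSF4, which resembles SRSF1 in having 2 RNA recognition motifs, was the lowest, with 672 counts in clone 41 and 1148 in the control, a ratio of 0.652 (0.592 to 0.718). No SR protein gene was 2-fold from the control. The 70 genes of the spliceosome and RBM families had a median log2 ratio of -0.01, with 1 member 2-fold or more above the control and 1 were 2-fold or more below it. Of 35 hnRNPs and splicing regulators, with a median of 0.03 (-0.04 with scaling to total counts), 3 were 2-fold or more above the control and 1 below it, where 3.15% and 5.43% of all members were. ESRP2 and KHDRBS3 are described with the largest ratios. RBFOX1, a splicing regulator of neurons and muscle, had 220 counts in clone 41 and 97 in the control, a ratio of 2.53 (1.98 to 3.24). PTBP3, a polypyrimidine tract binding protein, had 11 counts in clone 41 and 71 in the control, a ratio of 0.173 (0.0824 to 0.328). The 9 kinases of SR proteins, which set where these proteins act by phosphorylation, lay between -0.14 and 0.35. Of 15 genes of the exon junction complex and nonsense-mediated decay 9 lay below 0, with a median of -0.06, and UPF2, a core decay factor, had 2680 counts in clone 41 and 4684 in the control, a ratio of 0.637 (0.607 to 0.668).

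Over all members, 316 genes were at least 2-fold higher in clone 41, which is 3.15% of them, and 544 were at least 2-fold lower, or 5.43%, so that 8.58% were 2-fold apart in either direction. Most of these were weakly expressed. Among the 687 genes under 0.5 CPM, 49.9% lay 2-fold or further from the control, against 6.53% of the 1562 genes between 5 and 20 CPM and 0.0788% of the 2537 genes at 100 CPM or more. Among the 7856 genes with a mean of at least 5 CPM, 55 were at least 2-fold higher, or 0.7%, and 76 were at least 2-fold lower, or 0.967%. The middle 90% of these genes lay between -0.54 and 0.49 on the log2 ratio scale. Ratios of single genes are therefore named below mainly for genes above 5 CPM, and counts of weakly expressed families are to be read against these shares.

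**Figure D1:**
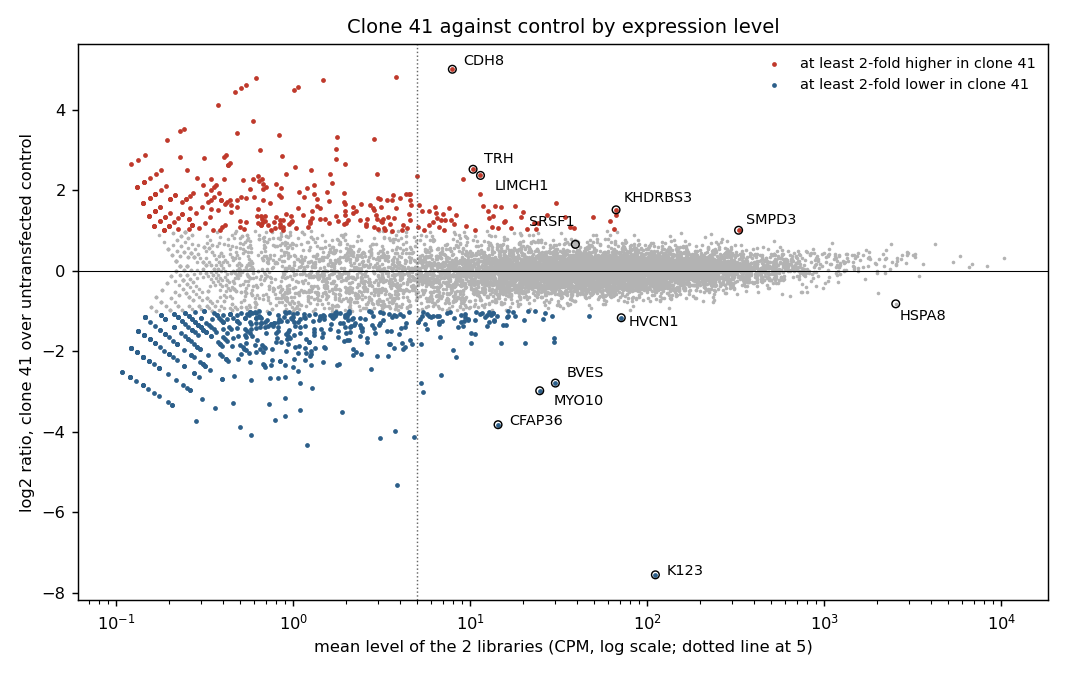
Log2 ratio of clone 41 over the untransfected control (y axis) against the mean level of the 2 libraries in CPM (x axis, log scale) for 10019 genes, 1 library a side; red points are at least 2-fold higher in clone 41, blue points at least 2-fold lower, and the dotted line marks 5 CPM. The spread narrows with level, and K123, at -7.55, lies apart from all other genes above 5 CPM.

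The highest ratio above 5 CPM was that of CDH8, a classical cadherin of nerve cells. It had 638 counts in clone 41 and 20 in the control, a ratio of 35.5 (22.8 to 58.6). TRH, the precursor of thyrotropin-releasing hormone, followed with 733 counts in clone 41 and 140 in the control, a ratio of 5.83 (4.86 to 7.04). LIMCH1, an activator of non-muscle myosin, had 794 counts in clone 41 and 169 in the control, a ratio of 5.23 (4.43 to 6.21). These genes had little RNA in the control, between 0.434 and 3.67 CPM.

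ESRP2, an epithelial splicing regulator, had 628 counts in clone 41 and 141 in the control, a ratio of 4.96 (4.13 to 5.997). ADAMTS7, a secreted metalloproteinase, was at 3.77 times the control level (3.24 to 4.41). CSTA, an inhibitor of cysteine proteases, was the most abundant of the 12 genes with the largest ratios by FPKM, at 139.8 in clone 41 and 44.98 in the control. The other 6 of those 12 genes lay between 3.00 and 3.13 times the control level. They were CCDC135, the glycophorin GYPC, the retinaldehyde dehydrogenase ALDH1A3, the mechanosensitive channel FAM38B, the kynureninase KYNU of tryptophan breakdown and the cytochrome CYP4F22.

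Among genes with a mean of at least 50 CPM, ratios of 2 or more were few. KHDRBS3, a splicing regulator of the STAR family, had 4091 counts in clone 41 and 1589 in the control, a ratio of 2.87 (2.70 to 3.04). TYSND1, a protease of peroxisomes, was at 2.61 times the control level (2.46 to 2.76) and APBB1IP, an adaptor that links Rap1 to integrin activation, at 2.37 times (2.23 to 2.51). TENM2, a teneurin of synaptic contacts, was at 2.07 times (1.96 to 2.19). SMPD3, the neutral sphingomyelinase, was the most abundant of these, with 18152 counts in clone 41 and 10028 in the control, a ratio of 2.02 (1.97 to 2.07).

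In the other direction K123 stood apart. It had 47 counts in clone 41 and 10195 in the control, a ratio of 0.00513 (0.00377 to 0.00683), and its FPKM was 0.370 in clone 41 and 95.6 in the control. MYO10, an unconventional myosin of filopodia, had 229 counts in clone 41 and 2021 in the control, a ratio of 0.126 (0.110 to 0.145). BVES, a membrane protein of cell contacts and muscle, had 316 counts in clone 41 and 2439 in the control, a ratio of 0.144 (0.128 to 0.162). MYO10 and BVES kept a low level in clone 41, at 5.54 and 7.64 CPM, and K123 was at 1.14 CPM there.

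COL20A1, a collagen, was at 0.121 times the control level, NCF1, a cytosolic subunit of the phagocyte NADPH oxidase, at 0.140 times and LITAF, an endosomal regulator, at 0.163 times. EDN3, an endothelin, LAMB1, a laminin chain, SFT2D2, SCG5, a secretory granule chaperone, and PRKCZ, an atypical protein kinase C, lay between 0.223 and 0.288 times. CFAP36 was the exception between the measures. It had 77 counts in clone 41 and 1238 in the control, a ratio of 0.0693 (0.0543 to 0.0872), but its FPKM was 18.8 in clone 41 and 29.2 in the control.

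Besides K123, the strongly expressed genes with the lowest ratios were HVCN1, KCNQ5, ADA and DUSP10. HVCN1, the voltage-gated proton channel of B cells and phagocytes, had 1822 counts in clone 41 and 4546 in the control, a ratio of 0.446 (0.422 to 0.471). KCNQ5, a potassium channel, was at 0.511 times the control level (0.485 to 0.537). ADA, the adenosine deaminase of purine salvage, had 3801 counts in clone 41 and 7952 in the control, a ratio of 0.532 (0.512 to 0.553). DUSP10, a phosphatase of stress-activated kinases, was at 0.551 times (0.525 to 0.579).

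**Figure D2:**
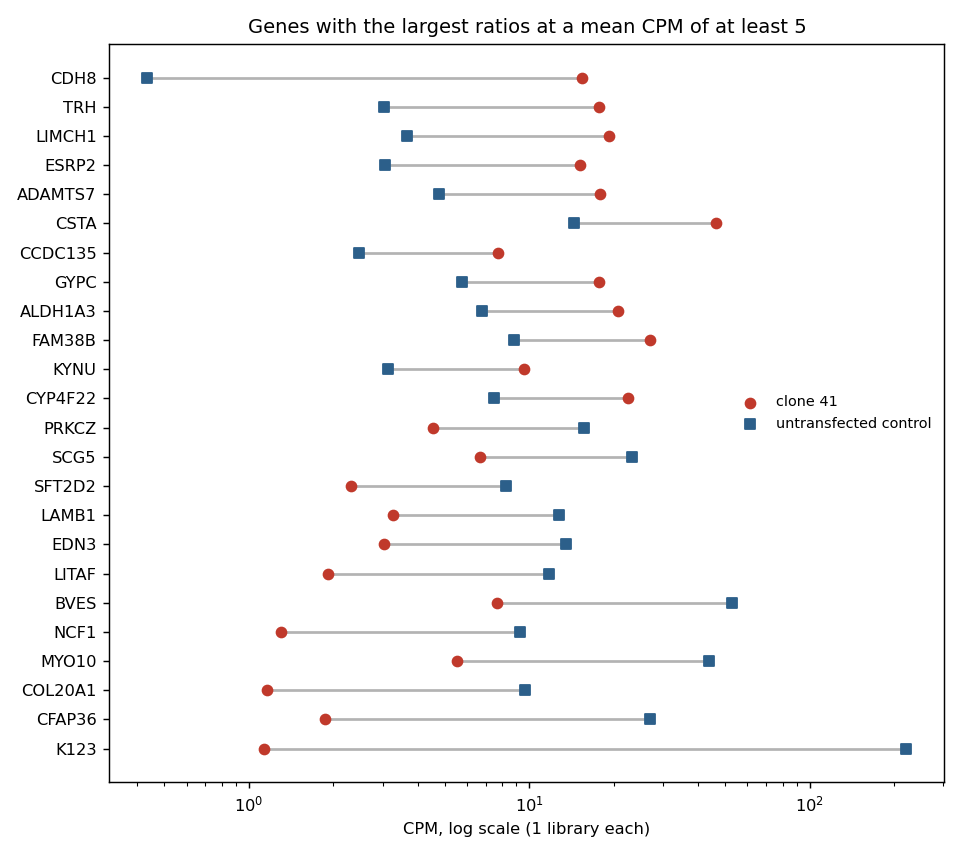
Level in CPM (x axis, log scale) of the 12 genes with the largest ratio in each direction above 5 CPM, with red circles for clone 41 and blue squares for the untransfected control, 1 library each. CDH8 spans 15.4 CPM in clone 41 and 0.434 CPM in the control, and K123 spans 1.14 CPM in clone 41 and 221.4 CPM in the control.

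Almost complete presence or absence was rare. SH3RF3, a scaffold of stress kinase signalling, had 120 counts in clone 41 and 3 in the control, a ratio of 44.5 (14.9 to 219.0), and was the only gene with at most 3 counts in the control and at least 100 in clone 41. MOXD1, a monooxygenase related to dopamine beta-hydroxylase, had 3 counts in clone 41 and 107 in the control, a ratio of 0.0312 (0.00634 to 0.0937), and was the only gene the other way round. Among the members named from gene families below 5 CPM, SNX24, a sorting nexin, had 6 counts in clone 41 and 350 in the control. GALNT6, an enzyme that starts O-linked glycans, had 12 counts in clone 41 and 273 in the control. GPR174, a receptor for lysophosphatidylserine, had 17 counts in clone 41 and 327 in the control. PCDHGC3, a clustered protocadherin, had 307 counts in clone 41 and 10 in the control.

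The deposited FPKM served as a second measure of the same libraries. Of the 131 genes above 5 CPM that were at least 2-fold apart by counts, 131 had the same direction by FPKM, 128 were at least 1.5-fold apart and 111 at least 2-fold. HIST1H2A4L3, a histone H2A gene with near-identical copies, was the 1 gene within 1.2-fold by FPKM, at 334 counts in clone 41 and 167 in the control against an FPKM of 23.5 in clone 41 and 22.8 in the control.

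**Figure D3:**
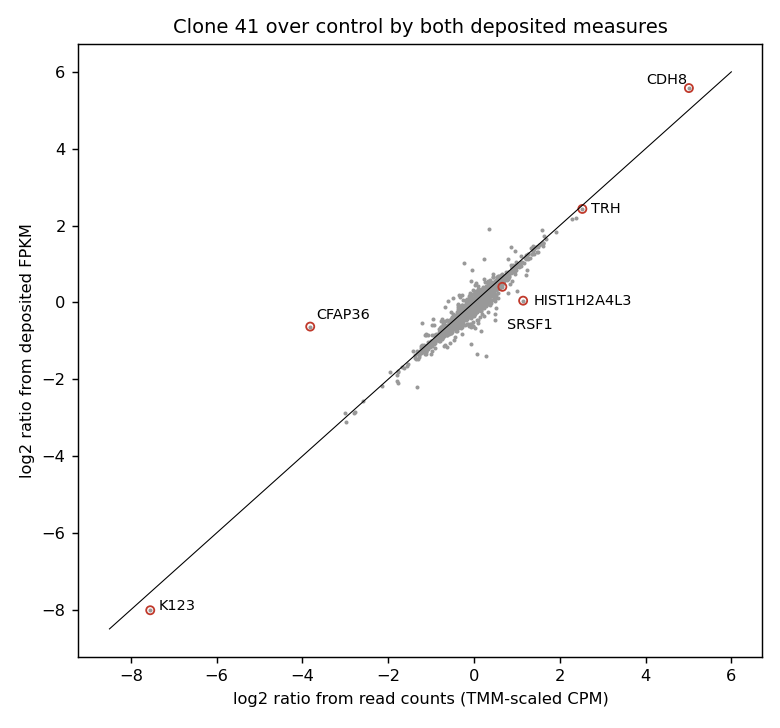
Log2 ratio of clone 41 over the control from deposited FPKM (y axis) against that from read counts (x axis) for genes above 5 CPM with an FPKM above 0 in both libraries; the line marks equal ratios. Most genes lie along the line, and CFAP36 lies far from it, at -3.82 by counts and at 18.8 FPKM in clone 41 against 29.2 in the control.

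Of the gene groups, most genes of cytosolic ribosomal proteins were higher in clone 41, by less than 2-fold, and other groups of protein synthesis were shifted less. All 67 cytosolic ribosomal protein genes in the table were measured, 60 lay above 0 and 7 below, and none was 2-fold away. Over all members 49.8% of genes lay above 0. The median log2 ratio of these 67 genes was 0.32, where that of all members was -0.0014. Together they took 9.48% of counts in clone 41 and 8.30% in the control. RPL13, of the large subunit, had 122134 counts in clone 41 and 84794 in the control, a ratio of 1.60 (1.59 to 1.62). RPL15 was at 1.62 times the control level (1.60 to 1.64), and RPS29, of the small subunit, also at 1.62 times (1.57 to 1.67).

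Nucleolar and growth genes had a median of 0.20 over 28 members, 20 of them above 0. The nucleolar chaperone NPM1 had 141321 counts in clone 41 and 112820 in the control, a ratio of 1.39 (1.38 to 1.41), and its relative NPM3 was at 1.46 times the control level. Of the 32 tRNA synthetase genes, which load tRNAs with amino acids, 21 lay above 0 with a median of 0.16. HARS was at 1.46 times the control level and SARS at 1.40 times, while MARS2, the mitochondrial methionine enzyme, was at 0.723 times. Translation factors were closer to the control, with a median of 0.08 and 33 of 49 above 0. Mitochondrial ribosomal proteins had a median of 0.05 with 37 of 59 above 0, and that median was -0.03 with scaling to total counts.

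Transcripts of the mitochondrial genome had a higher median than any other of these groups of metabolism and protein synthesis, at 0.39 with 12 of 13 above 0. CYTB, of complex III, had 215731 counts in clone 41 and 149911 in the control, a ratio of 1.60 (1.59 to 1.61). COX1, of complex IV, was at 1.26 times the control level (1.25 to 1.26). The share of counts from these 13 genes was 4.05% in clone 41 and 3.33% in the control. Nuclear genes of the respiratory chain were also mostly above 0 but by less. Complex I subunits and assembly factors had a median of 0.15 with 26 of 32 above 0, complexes III and IV a median of 0.15 with 11 of 12 above 0, and the nuclear genes of ATP synthase a median of 0.09 with 9 of 12 above 0.

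Glycolysis genes were higher as a group, with a median of 0.31 and 16 of 22 above 0. PFKP, a phosphofructokinase that commits glucose to glycolysis, had 27193 counts in clone 41 and 17937 in the control, a ratio of 1.69 (1.66 to 1.72). HK1, the hexokinase of the first step, had 13394 counts in clone 41 and 9009 in the control, a ratio of 1.66 (1.61 to 1.70). GPI, the next enzyme after hexokinase, was at 1.55 times the control level and LDHB, a lactate dehydrogenase, at 1.46 times. PFKFB3, which makes the activator of phosphofructokinase, went the other way, with 138 counts in clone 41 and 339 in the control, a ratio of 0.453 (0.369 to 0.554). HK2, the other hexokinase named, was weakly expressed, with 162 counts in clone 41 and 83 in the control, a ratio of 2.17 (1.66 to 2.87). PFKP and GPI lie in the higher stretches described with the gene order. The 18 glycolysis genes outside the higher and lower stretches had a median of 0.31, with 14 above 0.

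TCA cycle genes had a median of 0.12 with 18 of 23 above 0, and serine, one-carbon and amino acid synthesis genes a median of 0.16 with 14 of 17 above 0. ASNS, the asparagine synthetase, had 83368 counts in clone 41 and 64948 in the control, a ratio of 1.43 (1.41 to 1.44). PHGDH, the first enzyme of serine synthesis, had 96 counts in clone 41 and 182 in the control. Cholesterol synthesis genes were not shifted as a group, at a median of -0.03 with 9 of 22 above 0.

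**Figure D4:**
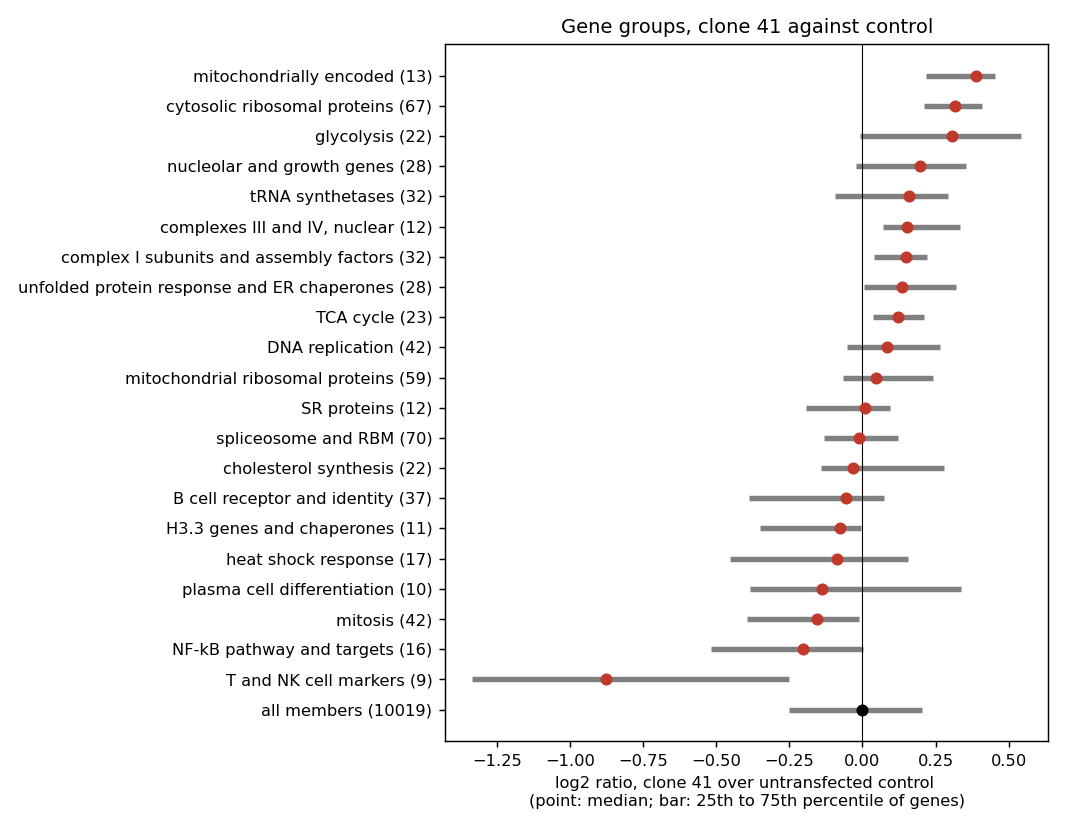
Log2 ratio of clone 41 over the untransfected control for 21 gene groups and all members (x axis), with the number of measured genes in parentheses; points are medians over genes and bars run between the 25th and 75th percentiles of genes, 1 library a side. Mitochondrially encoded genes (0.39) and cytosolic ribosomal proteins (0.32) lie highest. T and NK cell markers lie lowest, at -0.88 over the 9 genes measured of a list longer than the fixed markers.

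Mitosis genes were lower in clone 41. Of 42 measured, 33 lay below 0 with a median of -0.15, where 50.2% of all members lay below 0, and none was 2-fold away. AURKA, a spindle kinase, had 5926 counts in clone 41 and 10510 in the control, a ratio of 0.628 (0.608 to 0.648). CENPE, a kinetochore motor, had 5326 counts in clone 41 and 9414 in the control, a ratio of 0.630 (0.609 to 0.652). In the lower stretches described with the gene order lie 12 mitosis genes, CENPE among them, with a median of -0.46. The 26 outside the lower and higher stretches had a median of -0.08, and the lowest of them was at -0.31. Genes of DNA replication did not share this direction, with a median of 0.08 and 29 of 42 above 0. POLD2, a subunit of DNA polymerase delta, was at 1.38 times the control level and the helicase subunit MCM2 at 1.32 times, while MCM10 was at 0.686 times.

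Several strongly expressed chaperones of the heat shock response were lower in clone 41. HSPA8, the constitutive HSP70 chaperone, had 75950 counts in clone 41 and 148998 in the control, a ratio of 0.568 (0.563 to 0.573). HSPA4L was at 0.606 times the control level and the co-chaperone DNAJA1 at 0.634 times. HSPD1, also strongly expressed, went the other way, at 1.29 times, the highest ratio in the list above 5 CPM. The list as a whole had a median of -0.09 with 10 of 17 below 0. Genes of the unfolded protein response and chaperones of the endoplasmic reticulum lay the other way, with a median of 0.14 and 21 of 28 above 0. Within that list ERO1L, the oxidase that drives disulfide formation, had 588 counts in clone 41 and 2096 in the control, a ratio of 0.312 (0.285 to 0.342). It was the 1 of 28 at least 2-fold lower, against 5.43% of all members.

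The B cell list was little shifted, with a median of -0.05 and 17 of 37 above 0, where 49.8% of all members lay above 0. Of the 37, 1 was at least 2-fold lower (2.7%, against 5.43% of all members). CD72, an inhibitory co-receptor, had 8464 counts in clone 41 and 4910 in the control, a ratio of 1.92 (1.85 to 1.99). TNFRSF13B, the receptor TACI for BAFF and APRIL, had 644 counts in clone 41 and 1251 in the control, a ratio of 0.573 (0.520 to 0.631). BACH2, a repressor that delays plasma cell fate, was at 0.632 times the control level (0.562 to 0.709). Of the 10 plasma cell genes 6 lay below 0, where 50.2% of all members did. SDC1, the plasma cell antigen CD138, was at 1.75 times the control level (1.62 to 1.88) and JCHAIN, the joining chain of secreted antibodies, at 0.684 times (0.678 to 0.691).

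Of 37 interleukin and chemokine genes and receptors, 7 were 2-fold or more above the control and 7 were 2-fold or more below it, against 3.15% and 5.43% of all members. Most were weakly expressed. Only 13 lay above 5 CPM, with 1 above the control by 2-fold and none below, against 0.7% and 0.967% of all genes above 5 CPM. Among all members between 0.5 and 1 CPM 37.4% were 2-fold apart. The chemokine receptor gene CCR8L had 141 counts in clone 41 and 23 in the control, a ratio of 6.83 (4.37 to 11.1). IL10RA, a receptor subunit for interleukin 10, had 85 counts in clone 41 and 339 in the control, a ratio of 0.279 (0.217 to 0.355). STAT4, which carries interleukin 12 signals, had 1200 counts in clone 41 and 487 in the control, a ratio of 2.74 (2.47 to 3.05). SOCS1B, of the family that restrains such signals, had 36 counts in clone 41 and 168 in the control.

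Of 16 genes of the NF-kB pathway, 12 lay below 0 with a median of -0.20, where 50.2% of all members lay below 0. Above 5 CPM 10 of 14 lay below 0 with a median of -0.12, and none was 2-fold away. On the 4 lower chromosomes described with the gene order lie 7 of the 16, and 1866 of the 9467 members on the chromosomes used. CD83, an activation marker, had 73 counts in clone 41 and 231 in the control, a ratio of 0.352 (0.267 to 0.460), and the feedback inhibitor TNFAIP3 was at 0.635 times the control level. By counts, a list of T and NK cell markers, longer than the 9 fixed ones above, had the lowest median, -0.88. Of its 18 genes 9 were measured, only 2 of them above 5 CPM. Of the 9 measured, 3 were at least 2-fold lower, against 5.43% of all members. On the log2(FPKM + 1) scale the median of this list was -0.21, less low than those of heat shock genes (-0.26) and NF-kB genes (-0.23). The added 1 draws ratios of genes with a low FPKM towards 0. Lists of unlike level therefore cannot be ranked against each other on that scale. CD8A had 359 counts in clone 41 and 1011 in the control, and CD28, a co-stimulatory receptor, had 45 counts in clone 41 and 225 in the control. Both libraries were described as cells of a B cell line, and whether any T or NK cells were present was not tested. TLR4, the receptor for lipopolysaccharide, is not among the 7 myeloid markers above. In a longer myeloid list with 6 genes measured, it was the 1 at least 2-fold higher, against 3.15% of all members. TLR4 had 1314 counts in clone 41 and 715 in the control.

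Of 21 cadherins and protocadherins, 6 were 2-fold or more above the control (28.6%) and 2 were 2-fold or more below it, against 3.15% and 5.43% of all members. Their median was 0.54 by counts and 0.03 on the log2(FPKM + 1) scale. Only 5 of the 21 lay above 5 CPM, all 5 of them above 0 and 2 at least 2-fold higher. Of all genes above 5 CPM, 52.1% lay above 0 and 0.7% were at least 2-fold higher. The cadherins and protocadherins under 5 CPM lay at levels where between 21.6% and 49.9% of all members were 2-fold apart. CDH2, the neural cadherin, had 55 counts in clone 41 and 15 in the control. Semaphorins, plexins, netrins and the Slit and Robo genes guide axons and migrating cells. Of the 25 measured, 7 were 2-fold or more above the control and 1 below it, against 3.15% and 5.43% of all members. Above 5 CPM the counts were 2 and 0 of 12, against 0.7% and 0.967% of all genes above 5 CPM. The median of all 25 was 0.25 by counts and 0.13 on the log2(FPKM + 1) scale. Among them PLXNB2 was at 3.46 times the control level (2.73 to 4.41), SLIT2 at 2.56 times and its receptor ROBO1 at 2.16 times (1.91 to 2.44). Of 35 genes of neuronal adhesion and synapses, 7 were 2-fold or more above the control and 3 below it, against 3.15% and 5.43% of all members. Above 5 CPM 2 of 15 lay 2-fold or further away on each side, against 0.7% higher and 0.967% lower of all genes above 5 CPM. In that list DSCAM, an adhesion molecule of nerve cells, had 563 counts in clone 41 and 2131 in the control, a ratio of 0.294 (0.268 to 0.323), and NTM, of the same superfamily, had 803 counts in clone 41 and 343 in the control.

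Ion channel families did not share 1 direction. Of 23 ligand-gated channel genes 16 lay below 0, with a median of -0.39 by counts and -0.08 on the log2(FPKM + 1) scale. All 5 of them above 5 CPM lay below 0, where 47.9% of all genes above 5 CPM did. Of the 5, 1 was at least 2-fold lower, against 0.967% of all genes above 5 CPM. Of 29 potassium channel genes 2 were 2-fold or more above the control and 7 below it, against 3.15% and 5.43% of all members. Between 1 and 5 CPM, 21.6% of all members were 2-fold apart. Of the 12 potassium channel genes above 5 CPM, 1 was at least 2-fold lower and none higher, against 0.967% and 0.7% of all genes above 5 CPM. Of 48 sodium, calcium, chloride and TRP channel genes 9 were 2-fold or more above the control and 4 below it. Of all members 3.15% and 5.43% were. Above 5 CPM the counts were 2 and 0 of 20, against 0.7% and 0.967% of all genes above 5 CPM. KCNQ3 had 86 counts in clone 41 and 2 in the control, while KCNK12 had 70 counts in clone 41 and 304 in the control. CACNA2D3, a calcium channel subunit, was at 2.54 times the control level (2.35 to 2.75). Of 70 genes of dyneins, cilia and flagella, 13 were at least 2-fold lower (18.6%, against 5.43% of all members) and 1 at least 2-fold higher. Above 5 CPM, 2 of 40 were at least 2-fold lower and 1 higher, against 0.967% and 0.7% of all genes above 5 CPM. Of those 2, CFAP36 differed less by FPKM, at 18.8 in clone 41 and 29.2 in the control. On the 4 lower chromosomes described with the gene order lie 19 of the 70, and 1866 of the 9467 members on the chromosomes used. Integrins had 3 of 13 at least 2-fold lower and none higher, against 5.43% and 3.15% of all members. Above 5 CPM 2 of 10 integrins were at least 2-fold lower, against 0.967% of all genes above 5 CPM. ITGB4 was at 0.367 times the control level and ITGA2, a collagen receptor chain, at 0.480 times.

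Housekeeping families stayed near the control. The 35 proteasome genes had a median of -0.03, the 66 of RNA polymerase II and Mediator -0.02, the 228 of ubiquitin enzymes -0.05 and the 125 zinc finger genes -0.04. None of the proteasome, polymerase, ribosomal protein or respiratory chain genes measured was 2-fold away in either direction.

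On several chromosomes most of the measured genes shared a direction. Gene order was taken from the RefSeq gene table of assembly GRCg7b, which is not the build of the deposited data (galGal4), so chromosomes are named here by their first and last measured gene and no coordinates are given. Of all members 9550 (95.3%) had a place, and 29 chromosomes with at least 20 genes above 5 CPM were described. Chromosomes and stretches are described because of their values, which were known when they were picked, so their counts are descriptions. The files hold no measure of DNA copy number.

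On the chromosome that runs between ZC4H2 and LOXL3, 508 of 550 genes above 5 CPM lay below 0, where 47.9% of all genes above 5 CPM did. Their median was -0.37, or 0.776 times the control level, and the middle 50% of them lay between -0.50 and -0.19. All 46 windows of 15 adjacent genes along it had a median below 0. By FPKM the median was -0.39 on the log2(FPKM + 1) scale.

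For each chromosome or stretch described below, other than C2CD2L to FDXACB1, the 6 genes with the highest mean CPM (not scaled for length) are given without regard to their ratio, and other genes are named as chosen after their values were seen. On the ZC4H2 to LOXL3 chromosome JCHAIN had 67836 counts in clone 41 and 110424 in the control. NONO, a nuclear RNA-binding protein, was at 0.843 times the control level and DKC1, the pseudouridine synthase of small nucleolar particles, at 0.837 times. The ribosomal protein genes RPS3A, RPL9 and RPS4X were nearer to the control, at 0.917, 0.970 and 0.996 times. Chosen after their values were seen, BTK, the kinase of the B cell receptor, was at 0.751 times (0.726 to 0.777), SMARCA5, a chromatin remodelling motor, at 0.697 times (0.686 to 0.709) and the mitotic cyclin CCNA2 at 0.688 times (0.663 to 0.715).

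A further 3 chromosomes had a median of -0.15 or lower above 5 CPM. On the log2(FPKM + 1) scale their medians were -0.33, -0.24 and -0.19, in the order described. On the chromosome between DAD1 and MPP2 103 of 120 genes above 5 CPM lay below 0, with a median of -0.27 and all 10 windows below 0. TOP2A, the topoisomerase of dividing cells, had 25358 counts in clone 41 and 40410 in the control, a ratio of 0.699 (0.688 to 0.710). EIF1, a factor of start codon choice, was at 0.649 times the control level (0.638 to 0.660). The other 4 of the 6 genes with the highest CPM were nearer to the control, with RPL19 at 0.966 times, RPL23 at 1.01 times, RPL27 at 1.02 times and the citrate lyase gene ACLY at 0.870 times.

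On the chromosome between L3MBTL1 and B4GALT5 150 of 176 genes above 5 CPM lay below 0, with a median of -0.18 and all 15 windows below 0. TPX2, a spindle assembly factor, was at 0.756 times the control level and TOP1, the replication and transcription topoisomerase, at 0.875 times. Of the other 4, the initiation factor gene EIF2S2 was at 0.769 times, RPN2, of the oligosaccharyltransferase, at 0.916 times, YWHAB, a 14-3-3 protein, at 0.947 times and SLMO2 at 0.972 times. ADA, COL20A1 and EDN3, named above, also lie there. On the chromosome between RPS27A and C3H2ORF3 465 of 632 genes lay below 0, with a median of -0.15 and 51 of 52 windows below 0. XPO1, the main nuclear export receptor, had 35032 counts in clone 41 and 52045 in the control, a ratio of 0.7496 (0.739 to 0.760), while EEF1A1, the elongation factor that brings tRNAs to the ribosome, was at 1.09 times. The other 4 were also near or above the control, with RPS12 at 1.22 times, RPS7 at 1.13 times, HNRNPU at 1.052 times and SYNCRIP at 0.980 times. BVES, CFAP36, KCNQ5, DUSP10 and MOXD1, all lower and named above, lie on this chromosome. The chromosome between C2CD2L and FDXACB1 had a smaller median, -0.10, with 66 of 88 genes above 5 CPM below 0 and all 7 windows below 0. HSPA8, named above, lies on this chromosome.

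The chromosome between PLA2G15 and CHST6 was higher along its length. On it 181 of 201 genes above 5 CPM lay above 0, where 52.1% of all genes above 5 CPM did. Their median was 0.37, or 1.29 times the control level, and all 16 windows had a median above 0. On the log2(FPKM + 1) scale their median was smaller, 0.28. AARS and KARS, the alanine and lysine tRNA synthetases, were at 1.30 and 1.33 times the control level, and RPL13, the gene with the highest CPM there, is given above. CNOT1, a scaffold of mRNA deadenylation, was at 1.09 times, LSM14A at 1.14 times and the peroxisomal protease gene LONP2 at 1.35 times. CDH8, ESRP2 and SMPD3, of the largest ratios above, and the glycolysis gene GPI lie on this chromosome too. With the median of this chromosome taken off, the log2 ratios of CDH8, ESRP2 and SMPD3 were 4.64, 1.93 and 0.65. LIMCH1, at 5.23 times the control level, lies on the lower ZC4H2 to LOXL3 chromosome instead. The chromosome between NAB1 and NAA20 was higher by less, with a median of 0.17, 193 of 253 genes above 0 and all 21 windows above 0. Its median was 0.08 on the log2(FPKM + 1) scale, where that of all members was -0.05. The gene with the highest CPM there, the elongation factor EEF1B2, had 86614 counts in clone 41 and 69254 in the control, a ratio of 1.39 (1.38 to 1.41). Of the other 5, HSPD1, the mitochondrial chaperonin, was at 1.29 times, BZW1 at 1.23 times, NOP58, of small nucleolar particles, at 1.154 times, SSB, the La protein, at 0.996 times and SF3B1, a spliceosome subunit, at 0.968 times. GYPC, KYNU and STAT4 lie there, and so does CD28, which was at 0.223 times.

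On 2 chromosomes the direction changed along the way. At the start of the CARMIL3 to LCMT2 chromosome, the first 4 of 84 windows, CARMIL3 to DCLRE1C, held 60 genes with a median of -0.54, or 0.687 times the control level, and 54 of them lay below 0. The remaining 80 windows had a median of 0.06. K123 and PFKFB3 are adjacent members of that first stretch. Its 6 genes with the highest CPM included TAF3, a TFIID subunit, with 7224 counts in clone 41 and 13619 in the control, a ratio of 0.591 (0.574 to 0.608), and ATP5C1, a subunit of ATP synthase, at 0.761 times the control level. SBF1 was at 0.741 times, LMF2 at 0.667 times and GDI2, which recycles RAB proteins, at 0.859 times. FAM208B, the highest of them, was at 1.02 times.

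On the SMARCD3 to NRBP2 chromosome the first 21 of 56 windows, SMARCD3 to CTNNB1, held 315 genes with a median of 0.24, 260 of them above 0, and each of the 21 windows had a median above 0. The remaining 35 windows had a median of -0.04. In the first stretch ASNS was at 1.43 times the control level, the glycine tRNA synthetase GARS at 1.32 times, RPL14 at 1.34 times, RPL15 at 1.62 times, HNRNPA2B1 at 1.18 times and ARF1, a GTPase of Golgi traffic, at 1.34 times.

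**Figure D5:**
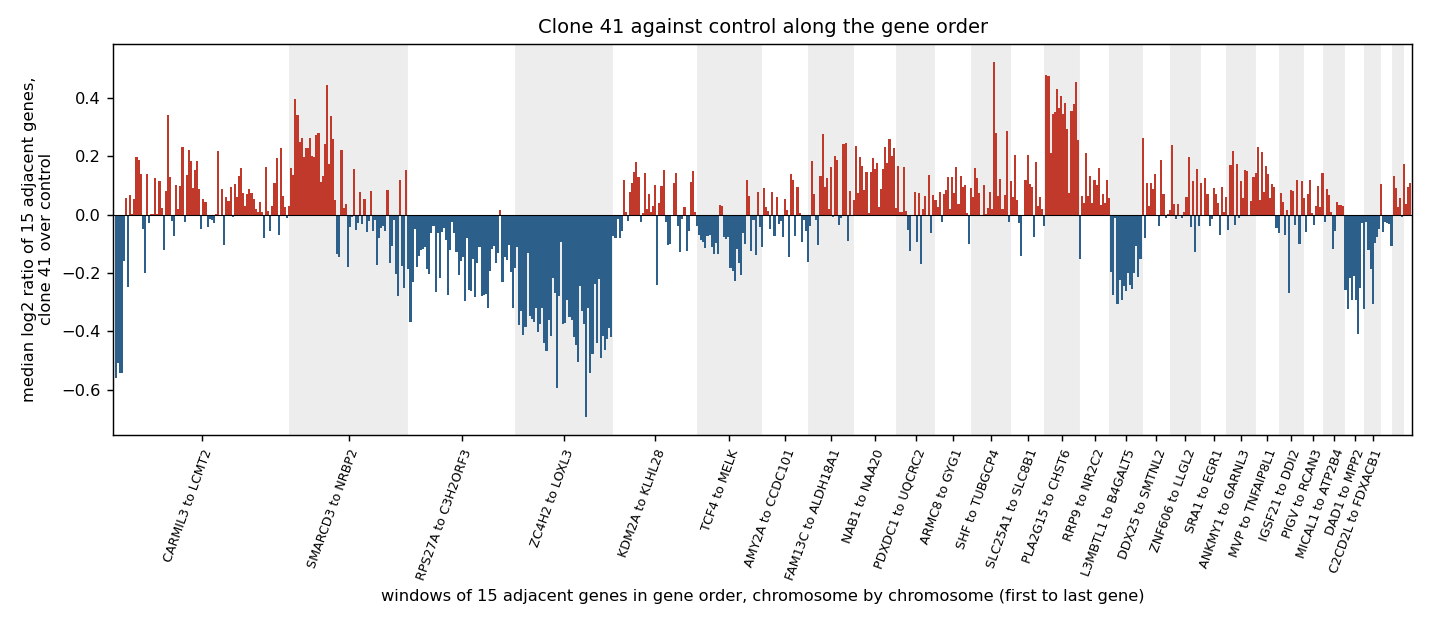
Median log2 ratio of clone 41 over the control in windows of 15 adjacent measured genes (y axis), in gene order along 29 chromosomes set side by side and named by their first and last gene (x axis; grey and white bands alternate between chromosomes, and some short ones are unnamed). Red bars lie above 0 and blue bars below; all 46 windows of ZC4H2 to LOXL3 lie below 0 and all 16 of PLA2G15 to CHST6 above 0.

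The 4 chromosomes with a median of -0.15 or lower above 5 CPM held 1866 members, of which 157 were at least 2-fold lower (8.41%) and 35 at least 2-fold higher (1.88%). On the other 25 chromosomes, C2CD2L to FDXACB1 among them, of 7601 members 355 were at least 2-fold lower (4.67%) and 259 at least 2-fold higher (3.41%). Above 5 CPM, 2.03% of the genes on those 4 chromosomes and 0.721% of the genes on the others were at least 2-fold lower. The 4 were picked by low medians of the same ratios, so these shares in part restate that choice.

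The lower stretches below are the 4 lower chromosomes and the CARMIL3 to DCLRE1C stretch, and the higher stretches are PLA2G15 to CHST6, NAB1 to NAA20 and SMARCD3 to CTNNB1. Of the 67 cytosolic ribosomal protein genes, the 13 in the lower stretches had a median log2 ratio of 0.01, the 50 elsewhere 0.34 and the 4 in the higher stretches 0.66. All members had medians of -0.27 in the lower stretches, 0.03 elsewhere and 0.23 in the higher ones, so the ribosomal protein medians lay above these in each. Of the tRNA synthetases, 5 in the lower stretches had a median of -0.13, 20 elsewhere 0.14 and 5 in the higher ones 0.38. Of the mitosis genes, 12 lay in the lower stretches with a median of -0.46, and 26 elsewhere had a median of -0.08 with 19 below 0. Of all members, 1554 of 1926 in the lower stretches lay below 0 and 3652 of 6651 elsewhere lay above 0. The 11 proteasome genes and 6 B cell genes of the lower stretches lay below 0 as well, and 13 of 22 proteasome genes and 14 of 27 B cell genes elsewhere lay above 0, so these counts largely restate how the stretches were picked.

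With the median of its own chromosome taken off each gene, cytosolic ribosomal proteins had a median of 0.30, glycolysis genes 0.27, mitosis genes -0.17, nucleolar and growth genes 0.13 and NF-kB genes -0.10. In the same way tRNA synthetases had a median of 0.09, complex I genes 0.08, nuclear genes of complexes III and IV 0.08 and DNA replication genes 0.01. The medians taken off were those of whole chromosomes, also where the direction changed along the way. Neighbouring genes that both differed 2-fold or more in the same direction formed 20 higher and 48 lower pairs among the 9438 pairs examined. Of all members, 3.15% were that far above the control and 5.43% that far below it. The number of pairs in a random gene order was not computed, so whether neighbours moved together beyond these shares was not tested. The longest run of neighbouring genes of this kind was CDC42EP3, RMDN2, NANP and EIF2AK2, all lower and each with a mean under 1 CPM. GPR132, JAG2 and NUDT14 formed another lower run, in which the Notch ligand gene JAG2 had 238 counts in clone 41 and 593 in the control, a ratio of 0.447 (0.383 to 0.520).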

How the data were processed

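Read counts were deposited as whole numbers, 1 per gene, and the deposited FPKM values are scaled by transcript length and library size by the authors. Per the labels' protocols, mRNA was enriched and sequenced from strand-specific libraries amplified for 10 cycles of PCR and read as paired ends of 75 bases. The build galGal4 and the tools Cuffdiff, Cufflinks 2.2.1, Bowtie, TopHat and TopHat2 come from the submitters' processing notes. Not given in the sources used here are the read counter, its strand setting and the annotation, so reads of overlapping genes may be shared.

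Only clone 41 and the untransfected control were used, and clone 47 was left out. Counts were scaled with edgeR 4.0.16 (TMM, R 4.3.3); ratios, intervals and medians were computed in Python 3.11.15 with scipy 1.17.1, and the steps were tested on simulated data. With 1 library a side no test was made. Members, 37 gene lists and 69 families taken by name pattern, which can include a few unrelated genes, were chosen with earlier results of these data known. Named are SRSF1, the 12 largest ratios per direction above 5 CPM with at least 1.5-fold by FPKM in the same direction, the 5 largest per direction above 50 CPM, genes with at most 3 counts against at least 100, genes whose FPKM differed by less than 1.2-fold, and up to 4 members per list with at least 50 counts. Gene order and windows of 15 genes were planned, while the grouping by chromosome, the stretches and the limit of 5 CPM were chosen after seeing the data. Other genes named (GPI, LDHB, COX1, JAG2 and the genes of chromosomes) were added after their values were seen. List symbols were matched directly or by RefSeq synonyms. Alternatives were total-count scaling, DESeq2 1.42.0 size factors, other filters and prior counts, and FPKM. The values of 1 gene are not reported here.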

Additional observations from a re-analysis of the deposited data

How the results depend on the processing

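No paired analysis was possible because each side is 1 library. The count of genes at least 2-fold higher in clone 41, 316, was 515 with no filter on low counts, 159 with at least 50 counts, 32 by log2(FPKM + 1) and 165 by log2(FPKM + 0.1). The count lower, 544, was 268 with at least 50 counts, 343 with a prior count of 10, 41 by log2(FPKM + 1) and 299 by log2(FPKM + 0.1). A value added to FPKM draws ratios of genes with a low FPKM towards 0, and 1 does so more than 0.1. Above a mean of 5 CPM, a limit chosen after seeing the data, 55 were higher and 76 lower. The log2 ratio of SRSF1, 0.66, was 0.40 by FPKM with either pseudocount (0.397 and 0.404). The median of sodium, calcium, chloride and TRP channels, 0.13, was -0.0038 by log2(FPKM + 1) and -0.0235 by log2(FPKM + 0.1), and that of integrins, -0.11, was 0.0089 above 5 CPM. Causes were not tested. Of the log2 ratios of named genes under these settings 234 stayed within the counting interval and 54 moved beyond it, all with their sign kept. Of list medians 430 stayed within 0.1 of the value given, 33 moved further and 3, those above, changed sign from 0.1 or more. With scaling to total counts the median over all genes was -0.08, and smaller list medians such as those of SR proteins (-0.06) and mitochondrial ribosomal proteins (-0.03) then lay below 0. Of the chromosome medians 88 stayed within 0.1 and 2 moved.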
